A study of Mus musculus with 8 samples.

Results

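The protocadherins described here are all genes of the mouse whose symbol begins with Pcdh, with predicted models and pseudogenes left out, found by Entrez identifier among the identifiers listed for every library. The rule gave 69 genes of 36528 identifiers. The alpha cluster held 14 of them, the beta cluster 22 and the gamma cluster 21, all on chromosome 18, and 12 were single genes. Subfamilies named below are the C-type genes of the alpha and gamma clusters, the gamma A and gamma B genes, and the delta-1 and delta-2 genes among the single ones. The RNA came from mesothelial cells, named primary in the title, of the omentum, the fold of serosal membrane that hangs from the stomach, in 4 libraries from BAP1 wildtype (WT) cells and 4 from BAP1 knockout (BAP1 KO) cells. The labels give no strain, age, Cre driver, deleted exon or treatment for either genotype, and do not tie the libraries to animals or cultures, so the spread behind each p-value is that between libraries and could be technical.

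Protocadherins are transmembrane adhesion proteins of the cadherin superfamily. In the alpha and gamma clusters each gene has its own promoter and a large first exon, which encodes the extracellular cadherin repeats, and this exon is spliced to a set of constant exons at the end of the cluster that encodes a cytoplasmic tail common to all members. The beta genes are each a single large exon with no constant exons. In neurons, different combinations of clustered members mark single cells and serve self-recognition, while the C-type members are expressed more broadly and the delta protocadherins bind partners such as the WAVE actin regulators.

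Promoter sequences are shown for 5 single genes, so that genes that fell and genes that rose in BAP1 KO cells can be read side by side. Each runs 5′ to 3′ from 250 bases before to 50 bases after a transcript start listed for the gene, from RefSeq on GRCm38.p6, and capitals mark a CCAAT box, the letters CCAAT on either strand. Pcdh18 is at chr3:49757267-49757566 on the minus strand, Pcdh9 at chr14:93890630-93890929 on the minus strand, Pcdh17 at chr14:84443313-84443612 on the plus strand, Pcdh7 at chr5:57717831-57718130 on the plus strand and Pcdh10 at chr3:45378148-45378447 on the plus strand. The listed start is the outer end of the gene in Pcdh17 and Pcdh10 and lies inside the gene in Pcdh18, Pcdh9 and Pcdh7. The first 3 genes fell and the last 2 rose.
Pcdh18: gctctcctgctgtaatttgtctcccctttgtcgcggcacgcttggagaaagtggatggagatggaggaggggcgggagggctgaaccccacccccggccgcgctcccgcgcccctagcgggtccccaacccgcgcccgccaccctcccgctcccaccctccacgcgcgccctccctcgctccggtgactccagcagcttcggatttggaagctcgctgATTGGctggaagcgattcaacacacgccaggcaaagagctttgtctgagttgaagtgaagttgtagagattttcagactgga
Pcdh9: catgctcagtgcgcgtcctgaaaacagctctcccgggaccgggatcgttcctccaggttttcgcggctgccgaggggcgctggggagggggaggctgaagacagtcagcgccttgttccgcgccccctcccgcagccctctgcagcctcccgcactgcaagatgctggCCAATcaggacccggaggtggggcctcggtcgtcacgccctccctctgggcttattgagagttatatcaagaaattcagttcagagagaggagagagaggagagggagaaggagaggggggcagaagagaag
Pcdh17: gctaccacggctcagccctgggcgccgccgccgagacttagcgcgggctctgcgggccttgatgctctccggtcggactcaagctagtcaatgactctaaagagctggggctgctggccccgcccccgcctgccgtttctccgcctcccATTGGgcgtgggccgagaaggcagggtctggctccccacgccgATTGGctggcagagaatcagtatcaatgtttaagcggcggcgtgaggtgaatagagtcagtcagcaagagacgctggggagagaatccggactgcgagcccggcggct
Pcdh7: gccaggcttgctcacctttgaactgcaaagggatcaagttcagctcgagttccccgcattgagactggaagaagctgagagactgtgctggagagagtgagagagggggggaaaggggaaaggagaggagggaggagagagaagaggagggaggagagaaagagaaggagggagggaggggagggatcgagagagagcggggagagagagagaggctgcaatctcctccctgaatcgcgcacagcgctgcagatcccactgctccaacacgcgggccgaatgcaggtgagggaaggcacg
Pcdh10: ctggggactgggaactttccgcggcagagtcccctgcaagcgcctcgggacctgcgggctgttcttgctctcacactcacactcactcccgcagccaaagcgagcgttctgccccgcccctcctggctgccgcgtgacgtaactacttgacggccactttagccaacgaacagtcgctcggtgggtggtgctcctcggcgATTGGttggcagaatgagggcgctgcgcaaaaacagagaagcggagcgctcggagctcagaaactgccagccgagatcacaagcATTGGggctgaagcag

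Promoter windows were read for 9 of the 12 single genes, 10 windows in all. Windows on chromosome 18 were left out, so Pcdh1 and Pcdh12 were not read, and no promoter was listed for Pcdh11x. The CCAAT box was added to the motifs after the sequences had been seen. It lay in the windows of 8 of the 9 genes, all but Pcdh7, against 37.41% of the 32851 promoters in the table. It stood 32 bases before the start in Pcdh18, 82 in Pcdh9, 101 and 58 in Pcdh17, and 50 before and 35 after the start in Pcdh10. The GC box GGGCGG, on either strand, lay in Pcdh10, Pcdh17, Pcdh18 and Pcdh19, against 35.66% of all promoters. Of the other motifs, searched on both strands, the CTCF core lay in Pcdh15 alone (8.61% of all promoters), the TATA box TATAAA in Pcdh8 and Pcdh15 (13.62%), and the YY1 core AAGATGG (6.34%) and the forkhead core GTAAACA (3.65%) in none of the windows. The CCAAT box thus stood in genes that rose and in genes that fell. The windows held 11 CG pairs in Pcdh7, 24 in Pcdh10, 23 in Pcdh18, 18 in Pcdh9 and 26 in Pcdh17, against a median of 7 over all promoters.

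The libraries held 67.1 to 84.9 M counts, more than the number of reads named in the labels' protocol, and why they exceed it is not stated there. Bap1 was at 63.2 ± 0.726 counts per M (CPM; SD, n = 4) in WT and 53.2 ± 0.912 in BAP1 KO, a log2 fold change of -0.25 (edgeR adjusted p = 2.14e-09). The libraries of the genotypes did not overlap, but reads outside the deleted exons check nothing about the labels. Of the defining mesothelial markers, Upk3b was at 462 and 464 CPM in WT and BAP1 KO, Wt1 at 121 and 166 and Msln at 6.95 and 3.06. Macrophage markers were abundant as well, with Lyz2 at 8386 and 11020 CPM, Csf1r at 847 and 876 and Ptprc at 153 and 118. So were the fibroblast markers Col1a1, at 8349 and 7268 CPM, Pdgfra, at 593 and 555, and Dcn, at 576 and 441. The smooth muscle marker Acta2 was at 5650 and 5658 CPM, Myh11 at 667 and 838 and Des at 1734 and 1508. Summed over its list, the mesothelial markers ranged from 1289 to 1318 CPM in WT and from 1371 to 1380 in BAP1 KO, the macrophage markers from 14680 to 15020 and from 17070 to 17640, and the smooth muscle markers from 12280 to 12760 and from 12510 to 12710. Lyz2 dominates the macrophage sum and its rise. At an edgeR adjusted p below 0.05, 6 of the 12 macrophage markers were higher and 5 lower, with a median log2 fold change of 0.03. Among all genes tested, 29% were higher and 32.1% lower. In such bulk libraries, fewer cells of a type and less RNA per cell cannot be told apart.

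Of the 69 protocadherins, 65 had enough counts to be tested, and 54 reached a mean of 1 CPM in a genotype. At an edgeR adjusted p below 0.05, 26 were higher in BAP1 KO and 11 lower, and 28 were not called. Over all 16929 genes tested, 29% were called higher and 32.1% lower, 61.1% in all. The median log2 fold change was -0.04 over the 65 members and -0.005 over all genes. These counts of members do not stand for as many measurements. The gene models of the alpha cluster all include the same constant exons, and so do those of the gamma cluster, so each deposited gene count holds the reads of the constant exons, shared by all members. The shared reads were 96.0 to 100% of the count of each alpha gene except Pcdhac2, where they were 47.0 to 57.4%. They were 92.9 to 99.7% of the count of each gamma gene except Pcdhgc3, where they were 64.3 to 67%. As deposited, 0 of 14 alpha genes were called by edgeR (0 at an unadjusted p below 0.05, and 0 by DESeq2 or limma-voom). With trends with GC content and length removed, Pcdhac2 was called higher (0.12, edgeR adjusted p = 0.0071). In that fit the median log2 fold change over all genes was 0.041. Of the gamma genes as deposited, 21 of 21 were higher, by 0.10 to 0.14 on the log2 scale. The alpha result and the gamma result are each mostly a single measurement repeated.

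The shared reads were therefore split off, a step chosen after seeing the data. In each library the lowest count among the models that hold a cluster's constant exons was taken as its shared reads; in the gamma cluster the predicted models Gm38666 and Gm38667, which are no members, set it, and each gene's own reads are its count less that value, which by the gene models fall in its first exon. Counted once each, the 12 single genes, the 22 beta genes, the own reads of 35 alpha and gamma genes and the shared reads of each cluster made 71 measurements, of which 56 were tested. Of these 18 were higher and 15 lower, or 32.1% and 26.8%, close to the 28.8% and 32.3% called over all genes in that fit. The bars of shared and own reads show the near-equal shared part under every gene of a cluster.

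**Figure D1:**
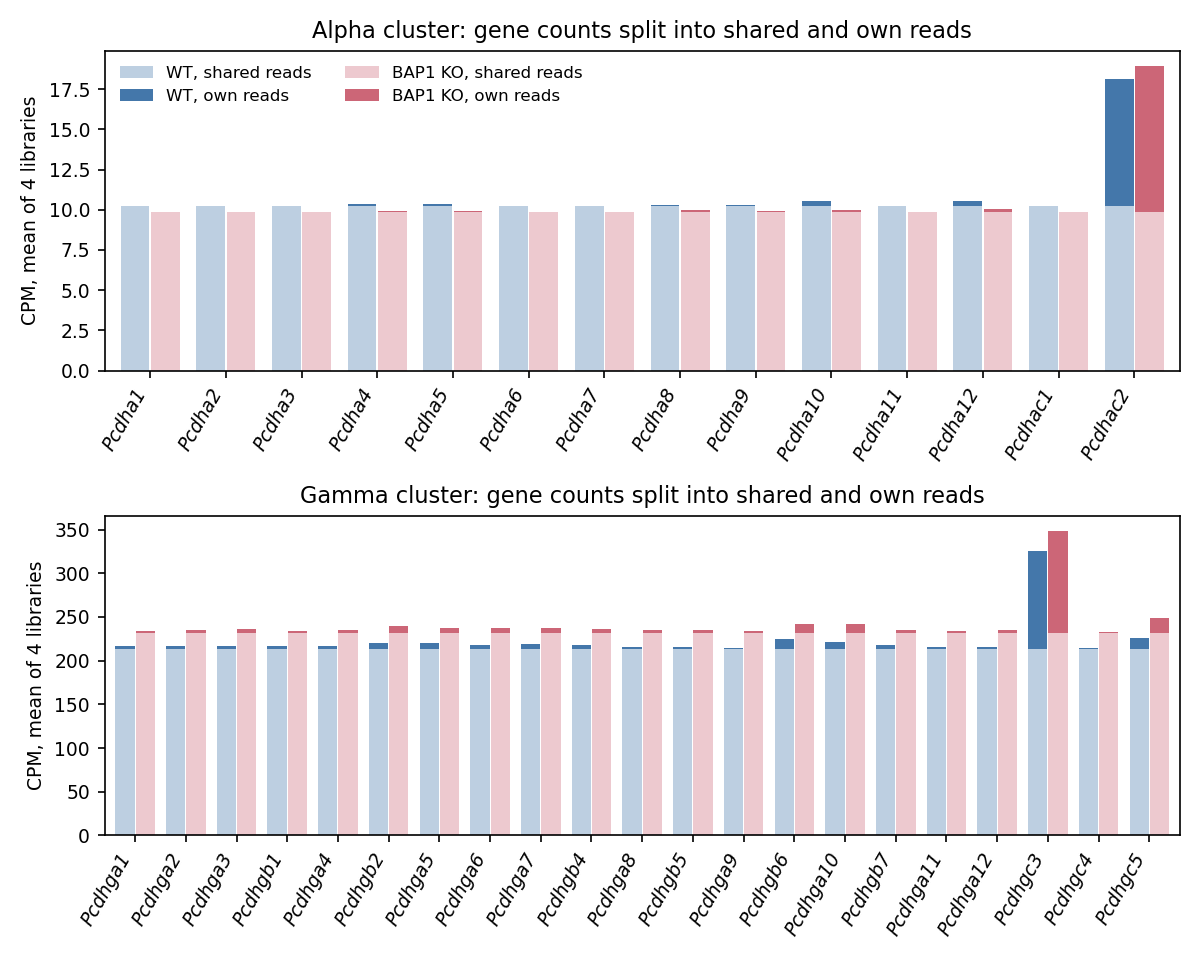
Deposited gene counts of the alpha cluster (upper panel) and the gamma cluster (lower panel) in CPM, as means over the 4 WT (blue) and 4 BAP1 KO (red) libraries, stacked as shared reads (pale) and own reads (dark). Only Pcdhac2 in the alpha cluster and Pcdhgc3 in the gamma cluster stand well above the shared part, which was 213 CPM in WT against 232 CPM in BAP1 KO for the gamma cluster.

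Per kilobase of gene or first exon, Pcdhgc3 was the most abundant protocadherin, at 43.4 CPM per kb in WT and 45.5 in BAP1 KO. Pcdh7 followed at 21 and 26.3 CPM per kb, and Pcdh1 at 6.56 and 5.1. Pcdh18 was at 5.01 CPM per kb in WT, rank 4 of the members, and at 2.83 in BAP1 KO, rank 10. Pcdhgc5 was at 4.86 and 6.79, rank 5 and 3. A level of 1 CPM per kb or more was reached by 25 members in WT and 26 in BAP1 KO. The own reads of the gamma genes summed per kilobase to 78.8% of the shared reads per kilobase in WT and 79.1% in BAP1 KO, and those of the alpha genes to 99.6% and 110%.

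Among the delta-1 protocadherins, whose tails carry a motif that binds protein phosphatase PP1, 2 rose and 2 fell. Pcdh7, which binds the phosphatase inhibitor SET, was by far the most abundant single protocadherin. It was at 272, 278, 266 and 268 CPM in the WT libraries and at 329, 336, 344 and 343 CPM in the BAP1 KO libraries. Every BAP1 KO library was above every WT library, with a log2 fold change of 0.32 ± 0.02 (SE) and an edgeR adjusted p of 5.21e-14. Pcdh7 lies at chr5:57716145-58133236, and its exons overlap the opposite-strand gene 4932441J04Rik, whose reads cannot be told apart from its own in a kit that does not mark strand.

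Pcdh11x, the X-linked delta-1 protocadherin at chrX:120290238-120910622, changed most of all tested members. Its WT libraries held 1.57, 1.69, 1.39 and 1.17 CPM and its BAP1 KO libraries 3.999, 4.68, 5.27 and 5.03 CPM. The groups were far apart, with 3.26-fold more in BAP1 KO (log2 fold change 1.71 ± 0.11, edgeR adjusted p = 9.17e-15). Its exons overlap no other annotated gene.

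Pcdh1, an epithelial adhesion protein known from the airway, at chr18:38185914-38212048, was at 65.6, 72.1, 67.7 and 71.5 CPM in WT against 54.2, 52.3, 54.9 and 54.0 CPM in BAP1 KO. All BAP1 KO libraries were lower, by 0.36 ± 0.03 on the log2 scale (edgeR adjusted p = 8.14e-12). Pcdh9, at chr14:93013700-93892834, was at 8.93, 9.56, 9.29 and 9.52 CPM in WT against 5.13, 5.37, 5.54 and 4.74 CPM in BAP1 KO. Its groups did not overlap either, and its log2 fold change came to -0.84 ± 0.06 (edgeR adjusted p = 1.79e-13). Summed, the 4 delta-1 genes went from 351 ± 7.28 CPM in WT to 402 ± 8.10 CPM in BAP1 KO (SD, n = 4), a sum that Pcdh7 dominates.

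Among the delta-2 protocadherins, several of which bind the WAVE complex, 2 fell, 1 rose, 1 was not called and 1 was not tested. Pcdh18, at chr3:49743291-49757383, was at 25.3, 27.0, 26.5 and 26.2 CPM in WT against 15.3, 14.9, 15.3 and 13.9 CPM in BAP1 KO. Every BAP1 KO library was below every WT library, and the log2 fold change came to -0.82 ± 0.04 (edgeR adjusted p = 2.41e-17), the smallest p among the members' gene counts. Pcdh17, at chr14:84443563-84537565, was at 1.14, 1.39, 1.42 and 1.38 CPM in WT against 0.736, 0.770, 1.09 and 0.620 CPM in BAP1 KO. The highest BAP1 KO library lay just under the lowest WT library, and the log2 fold change came to -0.72 ± 0.16 (edgeR adjusted p = 0.000191).

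Pcdh10, which recruits the WAVE complex to cell contacts, was at 4.36, 4.44, 4.01 and 4.07 CPM in WT against 5.17, 4.86, 4.91 and 4.81 CPM in BAP1 KO. The groups did not overlap, and the log2 fold change came to 0.22 ± 0.07 (edgeR adjusted p = 0.00643). Pcdh10 lies at chr3:45378398-45434579 and overlaps the opposite-strand gene 1700027H10Rik over 154 bases. Pcdh19, the X-linked epilepsy gene that acts with N-cadherin, was at 14.8 to 15.5 CPM in WT and at 14.3 to 15.6 CPM in BAP1 KO. These ranges overlapped, with a log2 fold change of -0.02 ± 0.04 (edgeR adjusted p = 0.703), and it overlaps the opposite-strand Gm26851 over 57 bases. Pcdh8, which overlaps the opposite-strand Gm9748, was too low to test, at 0.0353 to 0.117 CPM in WT and 0.124 to 0.159 CPM in BAP1 KO. The delta-2 genes summed to 47.1 ± 0.938 CPM in WT against 35.7 ± 1.19 CPM in BAP1 KO (SD, n = 4). Pcdh18, at 26.2 and 14.8 CPM on average, dominates that fall. Fibroblast markers moved the same way as Pcdh18 and Pcdh17, with 9 of 10 called lower, beside 32.1% of all genes. Their list sum was 19690 to 21050 CPM in WT against 15610 to 16200 CPM in BAP1 KO. Their part in the Pcdh18 and Pcdh17 results was not tested.

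The 3 remaining single genes were low. Pcdh12, an endothelial protocadherin, was at 1.23, 0.9999, 0.882 and 0.999 CPM in WT against 0.751, 0.950, 0.675 and 0.551 CPM in BAP1 KO. The groups overlapped, and the log2 fold change came to -0.48 ± 0.17 (edgeR adjusted p = 0.0139); the call was lost when WT replicate 1 (-0.39) or BAP1 KO replicate 4 (-0.37) was left out. Endothelial markers were also mostly lower, with 5 of 7 tested called lower and 1 higher, beside 32.1% and 29% of all genes. Their list sum was 48.5 to 49.6 CPM in WT and 32.9 to 34.7 CPM in BAP1 KO, most of it Kdr, Lyve1 and Vwf. The defining markers were low, with Cdh5 at 0.872 and 0.327 CPM, Pecam1 at 0.435 and 0.382 and Tek at 0.250 and 0.126. Of these, Pecam1 was not called (edgeR adjusted p = 0.594). The part of the endothelial markers in the Pcdh12 result was not tested. Pcdh15, the tip-link protein of hair cells, was at 0.152 and 0.282 CPM on average (log2 fold change 0.88, edgeR adjusted p = 0.0115), with 2 WT and 4 BAP1 KO libraries over the cut of the filter on low counts. Pcdh20 was at 0.0799 and 0.0377 CPM and was not tested. Over all 12 single genes, 10 were tested, 4 higher and 5 lower, beside 29% and 32.1% of all genes. Of the 12, 9 did not overlap between genotypes, the untested Pcdh8 among them, against 53.8% of all genes tested. When the test was against a 1.5-fold change, Pcdh11x was still called higher and Pcdh9 and Pcdh18 lower, and no other protocadherin gene count passed.

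**Figure D2:**
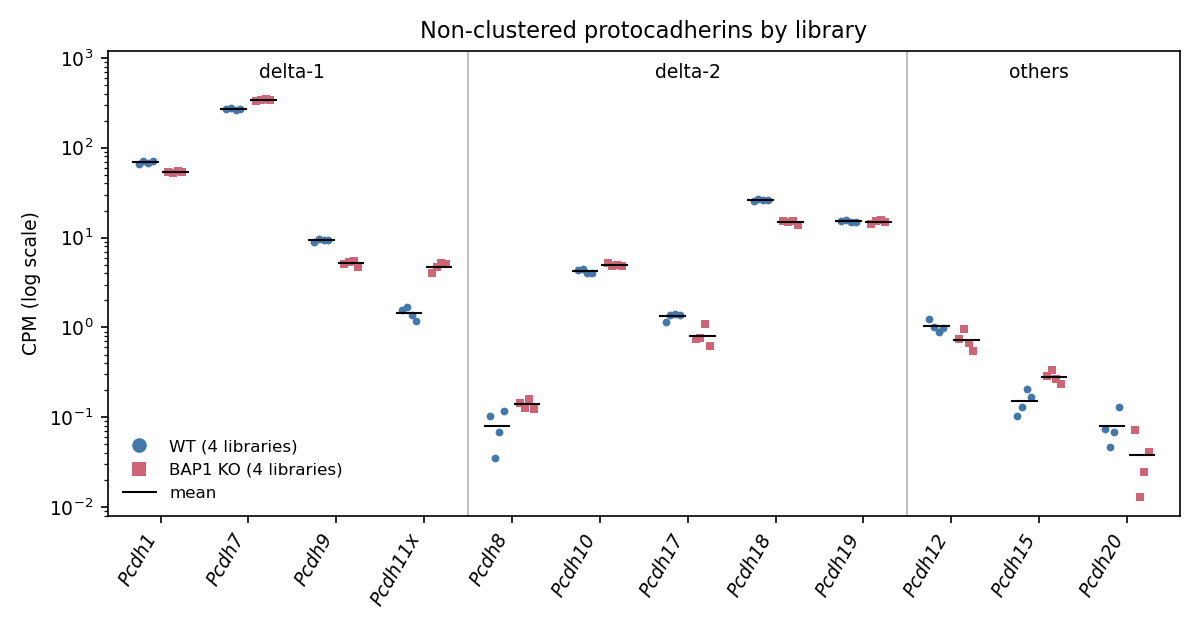
CPM of the 12 single protocadherins on a log axis, with 1 point per library for the 4 WT (blue circles) and 4 BAP1 KO (red squares) libraries and a bar at each mean. Pcdh7 lies at 266 to 344 CPM, Pcdh11x separates upward in BAP1 KO and Pcdh9 and Pcdh18 downward, and the points of Pcdh19 overlap.

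The shared reads of the gamma constant exons, a measure of all gamma transcripts together, were higher in BAP1 KO. In GENCODE the gamma genes also share exon bases with the same-strand genes Gm42416 and Gm38182, 1074 bases in Pcdhga2. Whether reads of those genes are in the shared value was not tested. The shared reads were at 207, 215, 215 and 217 CPM in WT against 233, 232, 230 and 233 CPM in BAP1 KO. All 4 BAP1 KO libraries were above all WT libraries, and the log2 fold change came to 0.12 ± 0.02 (edgeR adjusted p = 1.9e-05). By own reads, 11 of the 21 gamma genes were higher, 2 were lower and 8 were not called, beside 28.8% and 32.3% called higher and lower over all genes in that fit. The genotypes did not overlap in 12 of them, against 53.8% of all genes as deposited. These counts ranged with the fit: 9 to 13 were higher with 1 library left out, and 14 with trends with GC content and length removed. Removing those trends moved all genes upward as well. Over all genes as deposited, the median log2 fold change went from -0.005 to 0.041. The number called higher went from 4908 to 6133, and fewer were called lower. The 14 is therefore no sign of a stronger gamma result. In the main fit the median log2 fold change of the 21 was 0.18. Several gamma genes overlap genes of the opposite strand, whose reads cannot be told apart from theirs here, so their values are uncertain: Pcdhga1 overlaps Gm37118, Pcdhga7 and Pcdhga8 overlap Gm37165, Pcdhga10, Pcdhga11, Pcdhga12 and Pcdhgb7 overlap Gm26672, and Pcdhgc3 overlaps BC037039. In GENCODE, the models of Pcdhgb1 and Pcdhga4, and those of Pcdhgb4 and Pcdhga8, share exon bases beyond the constant exons, where a read could count for more than 1 gene. The lengths implied by the deposited RPKM values were shorter, at 4498 against 5776 bases for Pcdhgb1 and 4480 against 5812 for Pcdhgb4. Whether the deposited counts include those extra bases was not tested.

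All 3 C-type gamma genes were called higher by own reads, beside 28.8% of all genes in that fit. Pcdhgc3, which acts in dendrite branching and binds Axin1, took 55.3% of the gamma own reads in WT and 53.1% in BAP1 KO. Its own reads were at 114, 114, 106 and 112 CPM in WT against 119, 115, 119 and 115 CPM in BAP1 KO. The lowest BAP1 KO library was only just above the highest WT library, and the log2 fold change came to 0.07 ± 0.03 (edgeR adjusted p = 0.0214), a call lost with library totals alone and without WT or BAP1 KO replicate 3.

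Pcdhgc5 changed more, from 12.1, 13.4, 11.9 and 12.9 CPM of own reads in WT to 17.9, 17.3, 17.4 and 17.8 CPM in BAP1 KO. The groups were well separated, with a log2 fold change of 0.48 ± 0.04 (edgeR adjusted p = 8.21e-11). Pcdhgc5 shares 1976 exon bases with the same-strand genes Gm42416 and Gm38182, against 1074 for Pcdhgc4. Whether the own reads of Pcdhgc5 include reads of those genes was not tested. Pcdhgc4, needed for the survival of interneurons, had only 45 to 104 own reads in a library and was at 0.950, 0.775, 0.621 and 0.882 CPM in WT against 1.19, 1.22, 1.28 and 1.1 CPM in BAP1 KO. It did not overlap between genotypes, and its log2 fold change came to 0.57 ± 0.15 (edgeR adjusted p = 0.00143).

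Of the 12 gamma A genes, Pcdhga8 had the largest fold change, from 2.33, 2.02, 2.23 and 1.87 CPM of own reads in WT to 3.45, 3.34, 3.53 and 3.45 CPM in BAP1 KO. No library of one genotype fell among those of the other, and the log2 fold change came to 0.71 ± 0.09 (edgeR adjusted p = 4.87e-08). Pcdhga10 was at 7.94, 7.52, 8.34 and 7.84 CPM in WT against 10.7, 11.2, 10.5 and 10.4 CPM in BAP1 KO. Its groups did not overlap, with a log2 fold change of 0.44 ± 0.05 (edgeR adjusted p = 1.72e-08). Of the 50-base stretches in its transcripts, 44.35% also occur in another protocadherin, and only 1.02% in no other gene on either strand. Its own reads can therefore hardly be told apart from those of the opposite-strand Gm26672, and its rise is uncertain. Pcdhga12 (2.22 to 3.19 CPM, log2 fold change 0.52), Pcdhga9 (1.51 to 1.99, 0.39) and Pcdhga7 (5.48 to 6.23, 0.18) also rose with no overlap between groups. Summed, the gamma A own reads were 45.5 ± 0.971 CPM in WT against 52.5 ± 0.731 CPM in BAP1 KO (SD, n = 4).

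The 6 gamma B genes went both ways. Pcdhgb5 rose from 2.15, 2.67, 2.91 and 2.84 CPM of own reads in WT to 3.66, 3.64, 3.14 and 3.60 CPM in BAP1 KO (log2 fold change 0.40 ± 0.09, edgeR adjusted p = 0.000393). Pcdhgb2 rose from a mean of 6.23 to 7.57 CPM (0.28, adjusted p = 0.00015), and Pcdhgb4 from 4.05 to 4.75 CPM (0.23, adjusted p = 0.0154) with overlapping groups. Pcdhgb6, the most abundant gamma B gene, fell from 11.9, 11.1, 10.7 and 10.1 CPM to 9.89, 9.55, 9.73 and 9.85 CPM, groups that came close without overlapping (-0.17 ± 0.05, edgeR adjusted p = 0.0073). Pcdhgb1 fell from 3.01 to 2.58 CPM (-0.22, adjusted p = 0.0403), a call lost under 9 of 16 alternatives. The gamma B own reads summed to 31.2 ± 0.621 CPM in WT against 32.1 ± 0.467 CPM in BAP1 KO.

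The 8 gamma genes not called by own reads were Pcdhga1, Pcdhga2, Pcdhga3, Pcdhga4, Pcdhga5, Pcdhga6, Pcdhga11 and Pcdhgb7. Their WT means lay between 2.26 CPM (Pcdhga11) and 6.26 CPM (Pcdhga5), and their log2 fold changes between -0.15 (Pcdhga1) and 0.19 (Pcdhga11), and the genotypes overlapped in each.

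Along the gamma cluster, in order from Pcdhga1 to Pcdhgc5, the log2 fold change of own reads correlated with position at a Spearman rho of 0.52 over 21 genes, and of 0.47 over the 18 without the C-type genes. The beta genes gave 0.35 over 20 genes. These are descriptions across genes that share the libraries and, within the gamma cluster, the constant exons. In the first 8 gamma genes, a division made after the values were seen, 1 was higher, 1 lower and 6 not called, with a median of -0.03. In the last 13, 10 were higher, 1 lower and 2 not called, with a median of 0.39. Over all genes in that fit, 28.8% were called higher and 32.3% lower. As the division came from these values, the contrast between the 2 parts is no test of position. Among the first 8, Pcdhga3 and Pcdhga6 were also called higher under some alternatives (RLE factors and trends removed among them), with log2 fold changes of up to 0.24 in each, and Pcdhgb1 lost its call. The plot of gamma own reads shows that Pcdhgb6 and Pcdhgb7 lie below 0 among neighbours above it.

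**Figure D3:**
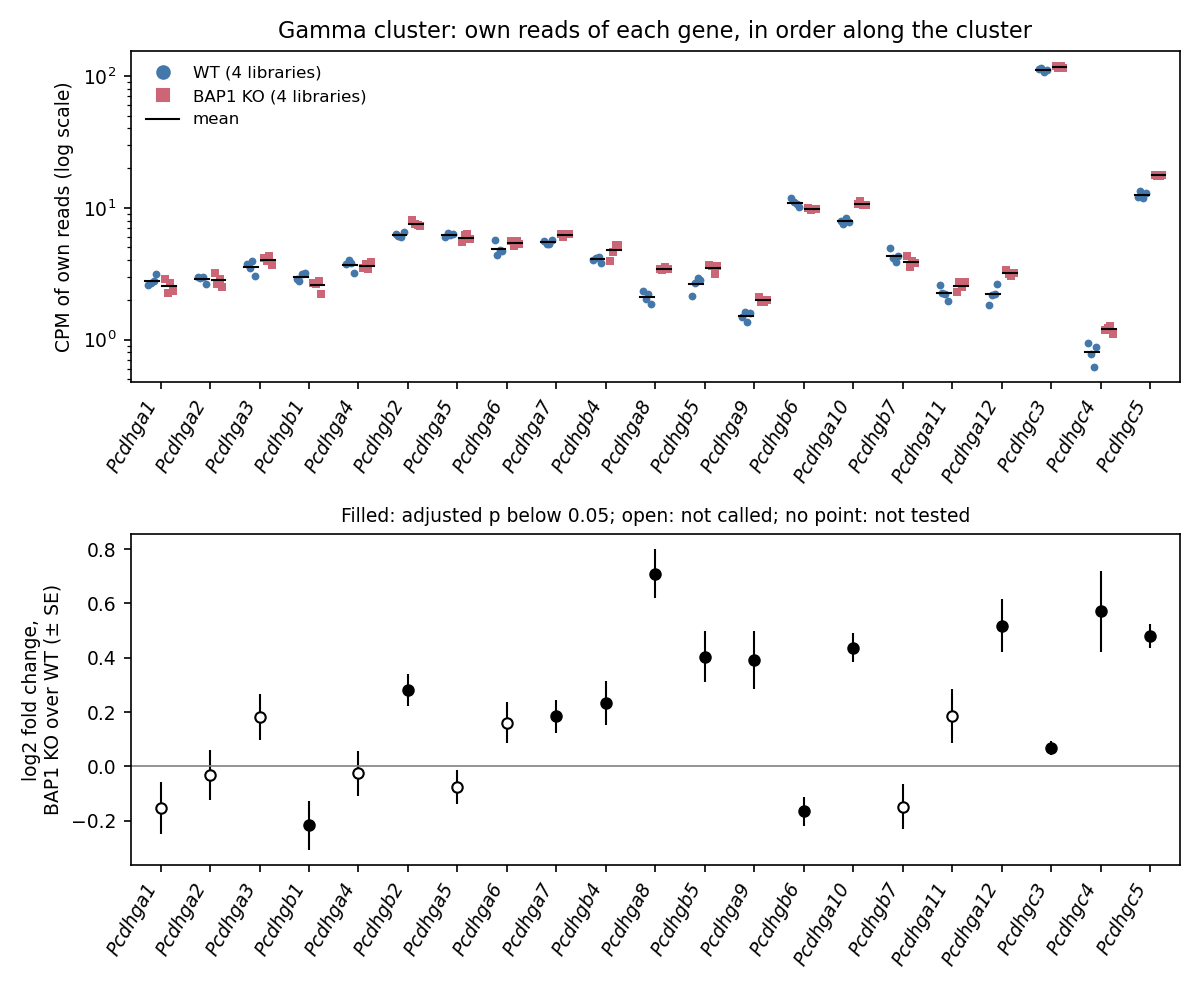
Own reads of the 21 gamma genes in order along the cluster, as CPM on a log axis with 1 point per library (upper panel, 4 WT and 4 BAP1 KO libraries, bars at the means) and as log2 fold change ± SE (lower panel, filled where the edgeR adjusted p was below 0.05). Pcdhga8 has the highest fold change, 0.71, and Pcdhgc3 the highest level, 112 CPM in WT.

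In the alpha cluster the shared reads did not pass the test. They were at 10.3, 9.97, 10.03 and 10.6 CPM in WT against 10.4, 8.38, 10.2 and 10.5 CPM in BAP1 KO. The groups overlapped, BAP1 KO replicate 2 lay below the rest, and the log2 fold change came to -0.05 ± 0.06 (edgeR adjusted p = 0.469). By own reads, 3 of the 14 genes could be tested. Pcdhac2, a C-type gene, held 87.3% of the alpha own reads in WT and 93.7% in BAP1 KO. It was at 7.60, 8.15, 7.65 and 8.18 CPM in WT against 9.53, 9.47, 8.96 and 8.29 CPM in BAP1 KO. The groups were next to each other without overlap, and the log2 fold change came to 0.20 ± 0.06 (edgeR adjusted p = 0.00347).

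The other 13 alpha genes together held 1.11, 1.29, 0.965 and 1.245 CPM of own reads in WT and 0.782, 0.513, 0.429 and 0.702 CPM in BAP1 KO. Every BAP1 KO sum was below every WT sum, and Pcdhac2 was higher. Pcdha10 fell from 0.310 to 0.138 CPM (-1.18 ± 0.33, edgeR adjusted p = 0.00254) and Pcdha12 from 0.326 to 0.193 CPM (-0.79 ± 0.31, edgeR adjusted p = 0.0262). Of the 4 libraries of each genotype, 4 WT and 2 BAP1 KO libraries were over the cut of the filter on low counts for Pcdha10, and 4 and 3 for Pcdha12. Pcdha12 overlapped between genotypes and lost its call with DESeq2 (-0.77) and without WT replicate 2 (-0.71) or 4 (-0.61) or BAP1 KO replicate 3 (-0.56) or 4 (-0.76), and it overlaps the opposite-strand Gm10545. The other 11 alpha genes had too few own reads to test. Of 14 neuronal and Schwann cell markers, 8 were tested, 4 were higher and 1 lower, beside 29% and 32.1% of all genes. The list summed to 35.03 to 36.8 CPM in WT libraries and 40.2 to 42.1 in BAP1 KO ones. Most of that sum was Tubb3, at 32.3 and 36.7 CPM on average, and Stmn2 was at 0.814 and 1.88, while the defining markers Rbfox3, Snap25 and Sox10 were at 0.0369 CPM or less in both genotypes. The part of such cells in the protocadherin results was not tested.

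Of the beta genes, 20 of 22 were tested, 1 was higher, 6 were lower and 13 were not called, with a median log2 fold change of -0.17. The share called lower was near the 32.1% of all genes, and 5 genes did not overlap between genotypes, a smaller share than the 53.8% of all genes. Their summed level was 45.8, 45.5, 45.2 and 44.8 CPM in WT against 42.2, 41.9, 42.7 and 42.4 CPM in BAP1 KO. The 4 BAP1 KO sums were all below the 4 WT sums, by a ratio of 0.933. Pcdhb1 and Pcdhb6 were too low to test.

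Pcdhb14 was the gene that rose, from 4.70, 4.02, 4.23 and 4.45 CPM in WT to 4.98, 5.57, 5.26 and 5.09 CPM in BAP1 KO. The groups did not overlap (0.27 ± 0.07, edgeR adjusted p = 0.00166). Pcdhb7 fell from 1.73, 1.74, 1.43 and 1.74 CPM to 1.18, 1.23, 1.28 and 1.21 CPM, again without overlap (-0.44 ± 0.12, edgeR adjusted p = 0.00194). Pcdhb5 fell from 1.89, 2.28, 2.15 and 1.88 CPM to 1.70, 1.35, 1.79 and 1.56 CPM, with no overlap (-0.36 ± 0.11, edgeR adjusted p = 0.00684).

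The other beta genes called lower had calls that depended on the fit. Pcdhb20 fell from 2.44 to 1.95 CPM with overlapping groups (-0.32, adjusted p = 0.00887), and was not called once trends with GC content and length were removed (-0.20). Pcdhb17, the most abundant beta gene at 3.16 and 2.88 CPM per kb, fell from 10.3 to 9.42 CPM (-0.13, adjusted p = 0.025). That call was lost with DESeq2 (-0.12), without WT replicate 1 (-0.12), WT replicate 2 (-0.13) or BAP1 KO replicate 1 (-0.11), and with those trends removed (-0.01). Pcdhb13 fell from 0.913 to 0.640 CPM (-0.51, adjusted p = 0.0203) and Pcdhb2 from 0.668 to 0.499 CPM (-0.41, adjusted p = 0.046). Pcdhb13 lost its call with DESeq2 (-0.51), without WT replicate 4 (-0.38) or BAP1 KO replicate 2 (-0.35) and with the trends removed (-0.40), and Pcdhb2 under 13 of 15 alternatives. The next most abundant beta gene, Pcdhb22, was at 6.32 and 5.85 CPM and was not called (adjusted p = 0.126). The log2 fold changes of the 13 beta genes not called ran from -0.42 (Pcdhb8) to 0.47 (Pcdhb12). Pcdhb12 overlaps the antisense Gm37446 over 1927 of its 3034 exon bases, so its value is uncertain.

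**Figure D4:**
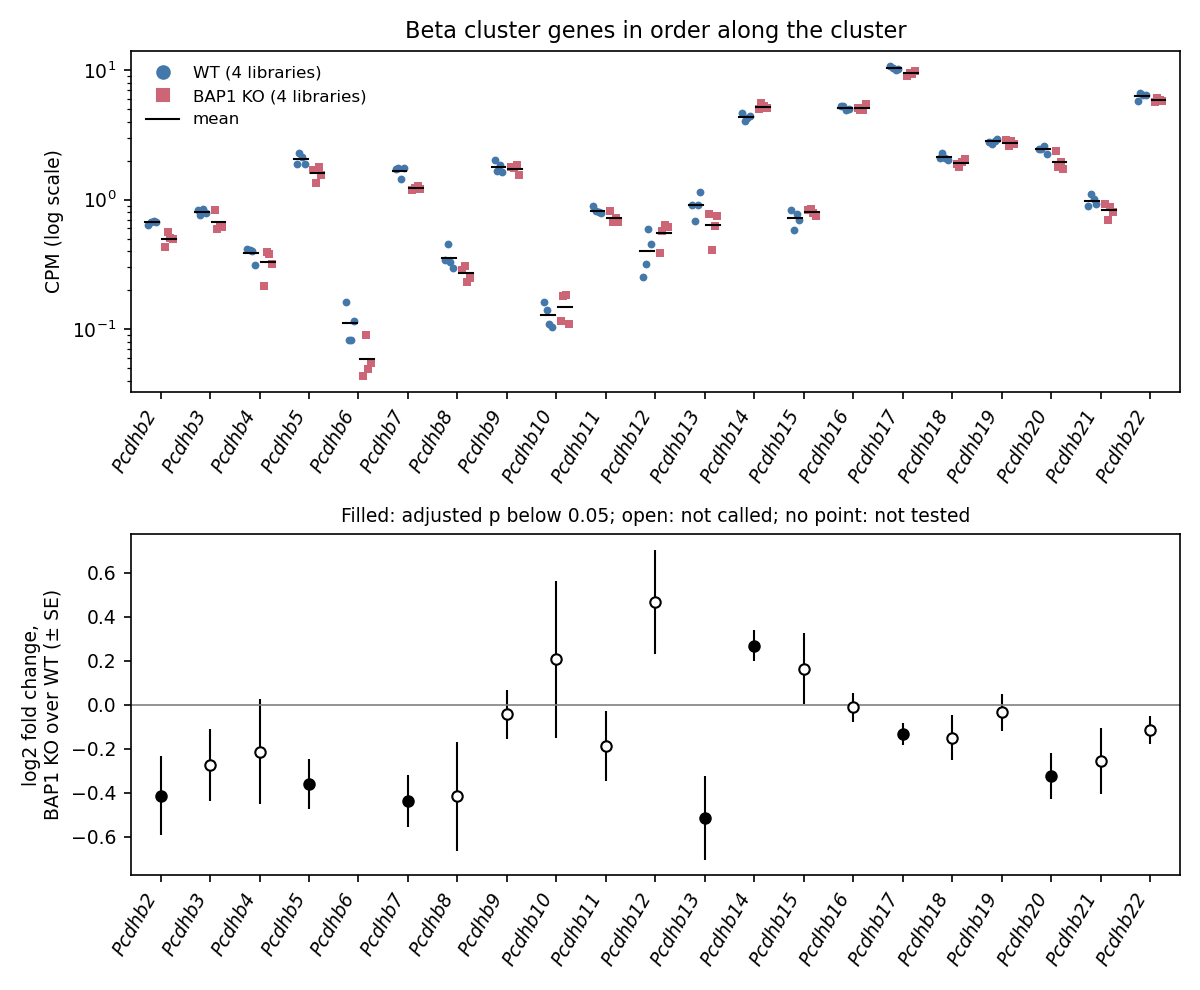
Beta genes in order along the cluster, as CPM on a log axis with 1 point per library (upper panel, 4 WT and 4 BAP1 KO libraries) and as log2 fold change ± SE (lower panel, filled where the edgeR adjusted p was below 0.05; untested genes have no point). Pcdhb14 rises (0.27) while Pcdhb5, Pcdhb7 and Pcdhb20 fall (-0.36, -0.44 and -0.32).

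Of 28 genes that regulate the clusters, among them CTCF, cohesin and silencing factors, 27 were tested, 9 were higher, 7 lower and 11 not called, with a median log2 fold change of -0.01, beside 29% and 32.1% called higher and lower over all genes. Atf7ip, a partner of the methyltransferase SETDB1, rose from 56.6 to 72.0 CPM (0.35, edgeR adjusted p = 3.27e-12) and Nsd1, a histone methyltransferase, from 95.8 to 110.9 CPM (0.21). Smchd1, which silences clustered protocadherins, fell from 60.8 to 51.3 CPM (-0.24, edgeR adjusted p = 3.55e-08). Ctcf itself was at 54.9 and 53.7 CPM and was not called (adjusted p = 0.373).

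Of 37 intracellular partners, such as the WAVE complex and kinases, all tested, 20 were higher, 10 lower and 7 not called, with a median of 0.09, beside the same 29% and 32.1% of all genes. The WAVE subunit Cyfip2 fell from 33.8 to 16.0 CPM (-1.08, edgeR adjusted p = 1.2e-21), while Wasf2, another WAVE gene, rose from 257 to 312 CPM (0.27, adjusted p = 1.67e-12). The kinase Src rose from 78.9 to 101 CPM (0.36), and Dact1, a Wnt pathway modulator, fell from 7.97 to 4.67 CPM (-0.77). Among other cadherins and related genes, 29 of 48 in the files were tested, 14 were higher, 11 lower and 4 not called, with a median of 0.14, beside 61.1% of all genes called in either direction. Cdh6 rose from 10.7 to 25.0 CPM (1.23, adjusted p = 7.96e-21) and Fat1, an atypical cadherin, from 447 to 572 CPM (0.36), while Dchs1, a Fat4 ligand, fell from 29.0 to 15.6 CPM (-0.90) and Cdh11, the cadherin of mesenchymal cells, from 538 to 419 CPM (-0.36).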

How the data were processed

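RNA of 4 WT and 4 BAP1 KO libraries, grouped by the labelled genotype, was sequenced as single-end 50 bp reads from a TruSeq RNA v2 kit, which does not mark strand, per the labels' protocols. GSNAP and GRCm38 were used, per the submitters' processing notes; for aligner version, annotation and strand setting, the sources used here give none. Per the file headers, the deposited counts are of reads that aligned uniquely, per Entrez identifier. The deposited RPKM values beside them, per the file headers, were used only to obtain gene lengths. Symbols came from the RefSeq table of GRCm38.p6 for 31049 of 36528 identifiers.

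The tests used edgeR 4.0.16 under R 4.3.3: quasi-likelihood, TMM factors, filterByExpr with a minimum count of 10 (0.133 CPM) and Benjamini-Hochberg adjustment at 0.05. A CPM is a gene's count in 1 M counts of the library after TMM scaling. Levels per kilobase are CPM over gene length, or over first-exon length for own reads. Own reads were tested in the same whole-table fit, with alpha and gamma counts replaced by own and shared reads (16918 genes tested). Alternatives used DESeq2 1.42.0, limma 3.58.1 (voom), other scalings, filters and left-out libraries. On simulated counts of this comparison with 16803 genes tested, 36% of genes changed 1.1-fold, 88% at 1.25-fold and 100% at 1.5-fold and 2-fold were recovered. There were 9 false calls among 16603 unchanged genes. The changed genes were drawn from those above 1 CPM, and all genes were given the same median dispersion (spread between libraries). These rates therefore do not cover members below 1 CPM.

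The members and lists were chosen with earlier results of these data known. Named are Bap1, members with a mean of at least 1 CPM in a genotype, the called members below that (up to 4 a subfamily), up to 4 called genes of each list of other genes by smallest adjusted p, and defining markers of marker lists; 2 genes that this rule names are not reported here. Other named genes (Ctcf, Tubb3, Stmn2, Kdr, Lyve1, Vwf, low or untested members) were added after their values were seen. Marker lists not described in the report were those of adipocytes and lymphocytes, read beside the 29% and 32.1% of all genes called higher and lower. Of 4 adipocyte markers tested, 4 were higher, and the list summed to 26.3 to 29.8 CPM in WT and 41.1 to 43.8 in BAP1 KO. Adipoq was at 3.72 and 5.21 CPM, Plin1 at 3.01 and 6.77 and Lep at 0. Of 4 lymphocyte markers tested, 1 was higher and 1 lower, and the list summed to 4.99 to 5.22 CPM and 3.12 to 3.42. Cd3e was at 0.0731 and 0.0475 CPM and Cd79a at 0.588 and 0.914.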

Additional observations from a re-analysis of the deposited data

Results flagged for a closer look

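In 98 groups of 4 libraries, 4 had a library far from the other 3, where chance gives about 1 in 20. Pcdhb7 was at 1.43 CPM in WT replicate 3, against 1.73 to 1.74 in the other WT libraries. Pcdh17 was at 1.14 CPM in WT replicate 1, against 1.38 to 1.42. The own reads of Pcdhgb5 were at 3.14 CPM in BAP1 KO replicate 3, against 3.60 to 3.66. The shared alpha reads were at 8.38 CPM in BAP1 KO replicate 2, against 10.2 to 10.5.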

How the results depend on the processing

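No paired analysis was possible because the labels carry no replicate numbers, and numbers given in accession order pair nothing. The removal of shared reads and of trends with GC content and length was chosen after seeing the data. In the test of a 1.5-fold change, 370 of all genes were called higher and 1014 lower, 1 and 2 of them protocadherins, Bap1 (log2 fold change -0.25) was not called, and own reads gave 0 calls in either cluster (edgeR). With shared reads removed, 17 protocadherins were higher, and with GC and length trends removed, 7 were lower. Pcdha10 and Pcdha12, the 2 alpha genes called lower by own reads, lie below 1 CPM. A filter of CPM above 1 in at least 4 libraries thus left them untested and gave 0 lower calls. With trends removed 1 was called lower, as Pcdha10 has no entry in the GENCODE annotation and was not in that fit. For alpha own reads, DESeq2 gave 1 lower call, and leaving out libraries gave 1 to 2 (edgeR). Gamma own reads gave 1 lower call with RLE factors, without a filter, with DESeq2 and with trends removed, and 1 to 2 with libraries left out. Leaving out libraries gave 26 to 27 protocadherins higher and 9 to 10 lower.

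Values that changed sign were all of uncalled genes. With libraries left out in turn, the gene counts of Pcdha1, Pcdha2, Pcdha3, Pcdha6, Pcdha7, Pcdha11 and Pcdhac1 and the shared alpha reads ranged from -0.08 to 0.02, Pcdha8 from -0.09 to 0.02, Pcdha4, Pcdha5 and Pcdha9 from -0.09 to 0.01, Pcdha10 from -0.11 to 0 and Pcdha12 from -0.10 to 0, each above or at 0 only when BAP1 KO replicate 2 was left out. Pcdhb9 ranged from -0.09 to 0.02, Pcdhb16 from -0.04 to 0.01, and the own reads of Pcdhga2 from -0.10 to 0.02 and of Pcdhga4 from -0.09 to 0.02. With trends removed, Pcdha12 and Pcdhga4 own reads were at 0.01, Pcdha1, Pcdha2, Pcdha4, Pcdha5, Pcdha7, Pcdha8 and Pcdha9 at 0.03, Pcdha3, Pcdha6, Pcdha11, Pcdhac1 and Pcdhb19 at 0.04, Pcdhb9 at 0.06 and Pcdhb16 at 0.10. The median over all genes as deposited was 0.041 with those trends removed, against -0.005 in the main fit. Own reads lost their call for Pcdhgb4 without BAP1 KO replicate 3 (0.18) or 4 (0.19). The causes were not tested.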
